A study of Mus musculus with 12 samples.

Results

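The 6 genes described here are Ccl5, its neighbor Heatr9, and the chemokine genes Ccl3, Ccl4, Xcl1, and Cxcl10, out of the 25078 genes of the deposited count table. They were selected by name after their values in the 3 donor genotypes had been seen, so their genotype differences are given as a description, without a test. The libraries hold mRNA of donor T cells sorted from the liver of lethally irradiated BALB/c recipients on day 6 after allogeneic hematopoietic cell transplantation (HCT). All recipients were WT mice, and they were given T cell-depleted bone marrow from WT C57BL/6 mice together with donor T cells of the genotype under study. The T cells came from WT C57BL/6 donors, from STAT3-/- donors (loxP-flanked Stat3 removed by a CD4-Cre transgene, which acts in the T cell lineage), or from STAT3-/-PD-1-/- donors, which also carry a germline loss of PD-1. CD4+ and CD8+ T cells were sorted separately, each of the 6 groups has 2 libraries, and the study's methods say that each library combines cells of 3 recipients. The totals ranged from 21676125 to 24551477 counts on genes per library (median 23442480), so depth differed little among groups. The study's legends take the CD4+ and CD8+ cells from the livers of the same recipients, so a CD4+ and a CD8+ library of a genotype with the same replicate number are treated as a pair where the subsets are compared. The errors given measure only the spread between these pools, which may be technical in part.

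Chemokines are small secreted proteins that bind 7-transmembrane receptors coupled to G proteins and direct the migration of leukocytes. CCL5 (RANTES), CCL3 (MIP-1α), and CCL4 (MIP-1β) are inflammatory CC chemokines. CCL3 and CCL5 bind CCR1, and CCL5 also binds CCR3. XCL1 (lymphotactin) binds XCR1, which is found mainly on cross-presenting dendritic cells, and CXCL10 (IP-10) is an interferon-induced ligand of CXCR3. In activated CD8+ T cells, CCL5 is a classic late product that is stored and released on contact with a target, whereas CCL3, CCL4, and XCL1 are released soon after T cell receptor engagement. Heatr9 encodes a HEAT repeat protein and is no chemokine.

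In mm10, Ccl5 lies at chr11:83525779-83530518 and Heatr9 at chr11:83511679-83522099. Both are on the minus strand, and 3679 bases separate the end of Ccl5 from the start of Heatr9 in the direction of transcription. Ccl3 (chr11:83647843-83649378, minus strand) begins 117324 bases beyond Ccl5 on the other side, and Ccl4 (chr11:83662584-83664683, plus strand) lies 13205 bases beyond Ccl3. Cxcl10 is at chr5:92346639-92348889 and Xcl1 at chr1:164931644-164935522, both on the minus strand. Promoter windows from RefSeq (GRCm38.p6, the assembly of mm10) were matched for 4 of the 6 genes, namely Heatr9, Ccl3, Xcl1, and Cxcl10. The 250 bases before the annotated start are shown for these, so that motifs of factors known from chemokine promoters can be compared between genes that behaved differently. Capitals mark every match to a motif searched on both strands.
Heatr9 (chr11:83522100-83522349, minus strand): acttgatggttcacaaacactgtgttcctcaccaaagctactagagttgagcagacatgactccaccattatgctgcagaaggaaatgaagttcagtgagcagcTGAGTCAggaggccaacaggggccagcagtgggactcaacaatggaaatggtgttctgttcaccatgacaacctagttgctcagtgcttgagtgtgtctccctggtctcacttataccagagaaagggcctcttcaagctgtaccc
Ccl3 (chr11:83649379-83649628, minus strand): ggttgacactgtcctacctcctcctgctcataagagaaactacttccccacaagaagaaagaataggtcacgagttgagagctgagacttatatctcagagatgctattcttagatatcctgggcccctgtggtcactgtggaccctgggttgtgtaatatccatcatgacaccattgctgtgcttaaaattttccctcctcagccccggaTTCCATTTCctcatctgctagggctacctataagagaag
Xcl1 (chr1:164935523-164935772, minus strand): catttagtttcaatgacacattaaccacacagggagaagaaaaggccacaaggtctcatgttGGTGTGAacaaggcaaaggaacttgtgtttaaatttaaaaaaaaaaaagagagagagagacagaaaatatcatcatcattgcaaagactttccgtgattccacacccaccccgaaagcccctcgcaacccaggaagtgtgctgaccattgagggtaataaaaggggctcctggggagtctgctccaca
Cxcl10 (chr5:92348890-92349139, minus strand): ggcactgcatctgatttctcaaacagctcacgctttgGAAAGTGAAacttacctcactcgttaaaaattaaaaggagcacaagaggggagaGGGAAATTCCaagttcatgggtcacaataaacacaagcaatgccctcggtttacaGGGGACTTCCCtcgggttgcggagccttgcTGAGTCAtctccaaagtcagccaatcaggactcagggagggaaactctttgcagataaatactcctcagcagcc

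The AP-1 core TGANTCA was found once in the Heatr9 window, 140 to 146 bases before the start, and once in the Cxcl10 window, 68 to 74 bases before it. This core is held by 6.75% of the 32851 promoter windows of the same length. The interferon-stimulated response element core GAAANNGAA was found in the Cxcl10 window (205 to 213 bases before the start) and, on the other strand, in the Ccl3 window (31 to 39 bases before it), as in 7.13% of windows. Cxcl10 also held 3 matches to the NF-kB consensus, 2 of which overlap, as against at least 1 match in 7.25% of windows. The Xcl1 window held the T-box core GGTGTGA 182 to 188 bases before the start, a sequence found in 3.33% of windows. The STAT palindrome TTCNNNGAA (7.02% of windows) and the TATA box TATAAA (12.4% of windows) matched none of the 4 windows. A match is a string of letters and does not show binding.

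The labels were checked first in the genes that were deleted and in the coreceptors used for the sort. Levels are given as CPM, that is, counts scaled to the library size after TMM normalization. Stat3 had 369 and 467 CPM in the WT CD4+ libraries, 140 and 164 CPM in the STAT3-/- libraries, and 157 and 219 CPM in the STAT3-/-PD-1-/- libraries. In CD8+ libraries it had 397 and 384, 149 and 136, and 154 and 235 CPM in the same order, so the genotypes with and without STAT3 did not overlap in either subset. Pdcd1, which encodes PD-1, had 55.1 and 26.0 CPM in the STAT3-/-PD-1-/- CD4+ libraries and 93.6 and 65.6 in the CD8+ libraries, as compared with 235 to 454 in the other 8 libraries. Cd4 was at 1242 to 1887 CPM in the CD4+ libraries and at most 2.73 CPM in the CD8+ libraries. Cd8a was at 589 to 1339 CPM in the CD8+ libraries and at most 5.64 CPM in the CD4+ libraries. The labelled subsets therefore carried their defining coreceptor, and Cd3e, a chain of the T cell receptor complex, was at 533 to 736 CPM in all 12 libraries. The coreceptor level itself differed between genotypes. Cd8a was at 595 and 589 CPM in STAT3-/-PD-1-/- CD8+ libraries, as compared with 1191 and 1339 CPM in WT and 1023 and 1184 CPM in STAT3-/-. It fell by 1.09 on the log2 scale against WT (edgeR, adjusted p = 0.00414) and by 0.89 against STAT3-/- (adjusted p = 0.00700), and Cd8b1, the other CD8 chain, fell by 0.87 and also against STAT3-/- (adjusted p = 0.00531 and 0.00454). Of 5 T cell genes listed, Cd2, Cd3d, and Lck fell against WT and Cd2 and Lck against STAT3-/- in CD8+ T cells. In CD4+ T cells Cd4 fell by 0.52 (adjusted p = 0.0375) and Cd2 by 0.53 (adjusted p = 0.0450) against WT, and none of these genes passed against STAT3-/-.

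The Ccl5 level was higher with STAT3-/- than with WT donors in both subsets, and it was lower again where PD-1 was missing too. In these bulk libraries, fewer cells of a type and less RNA per cell cannot be told apart. In CD4+ T cells it was at 47.8 and 53.5 CPM in WT, 156 and 165 CPM in STAT3-/-, and 69.0 and 70.4 CPM in STAT3-/-PD-1-/- libraries. The STAT3-/-PD-1-/- libraries thus lay between the other 2 genotypes, with no overlap. Among the CD8+ libraries Ccl5 was at 396 and 357 CPM in WT, 521 and 576 CPM in STAT3-/-, and 105 and 98.4 CPM in STAT3-/-PD-1-/- libraries. Here the STAT3-/-PD-1-/- libraries were the lowest of the 3 genotypes, below WT. The summed level of Cd8a and Cd8b1 was also lowest in these libraries, at 1149 and 1173 CPM as compared with 2060 to 2395 CPM in the other 4, and its part in the Ccl5 level was not tested. From low to high, the groups ran from WT CD4+ through STAT3-/-PD-1-/- CD4+, STAT3-/-PD-1-/- CD8+, STAT3-/- CD4+, and WT CD8+ to STAT3-/- CD8+. No neighbors in this order overlapped.

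The log2 fold change of Ccl5 (± standard error) for STAT3-/- against WT was 1.67 ± 0.15 with CD4+ cells, or 3.18-fold, and 0.54 ± 0.11 with CD8+ cells, or 1.46-fold. For STAT3-/-PD-1-/- against STAT3-/- it was -1.19 ± 0.14 (CD4+) and -2.42 ± 0.12 (CD8+), which is 2.28-fold and 5.35-fold lower. For STAT3-/-PD-1-/- against WT it was 0.48 ± 0.14 (CD4+) and -1.88 ± 0.12 (CD8+), opposite in sign. The comparisons within a subset share libraries, so these 3 values are not independent. Leaving out any 1 library kept the value for STAT3-/- against WT between 1.58 and 1.75 (CD4+) and between 0.46 and 0.62 (CD8+). Taken within a replicate number, it was 1.71 and 1.62 (CD4+) and 0.395 and 0.691 (CD8+) in numbers 1 and 2.

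**Figure D1:**
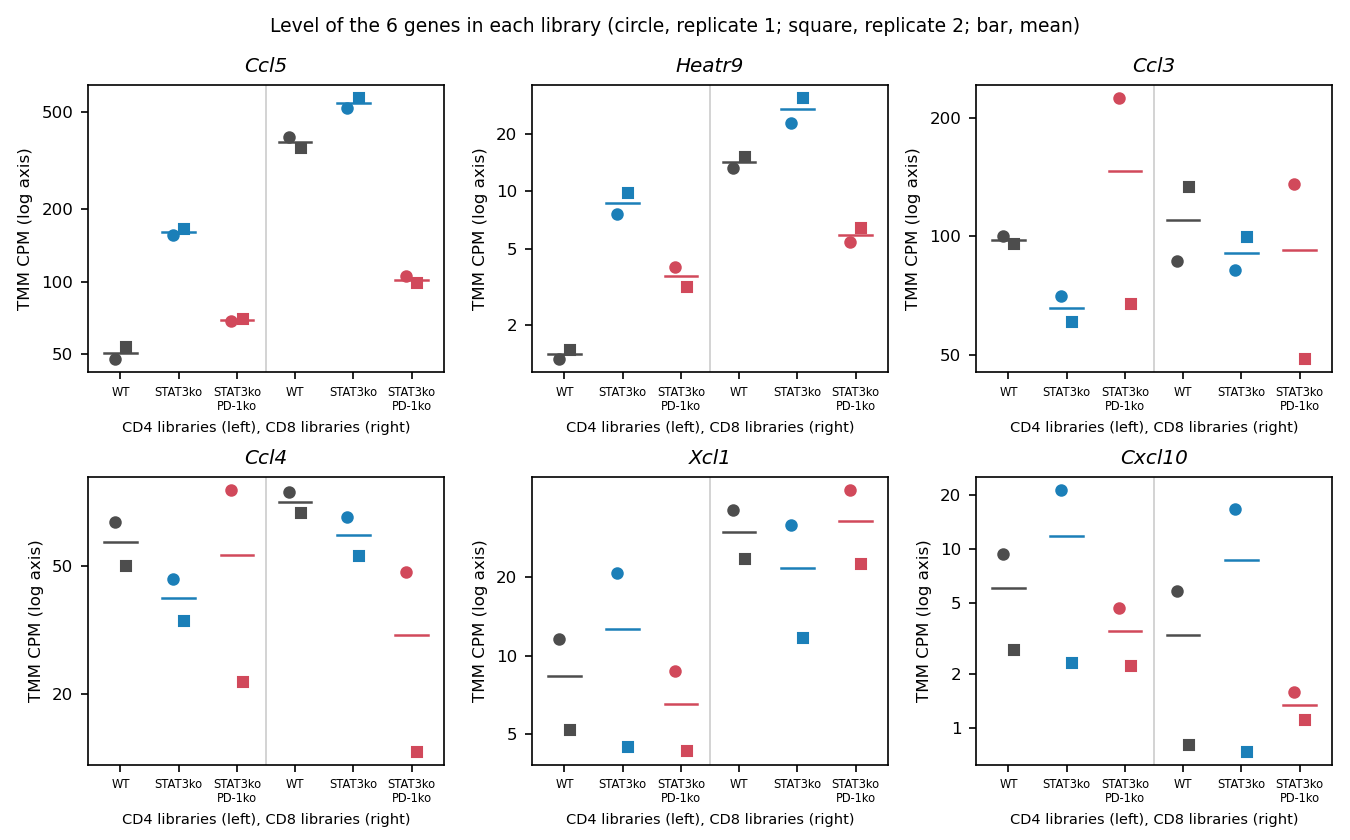
Level of each of the 6 genes (TMM-normalized CPM, log axis) in the 12 libraries, with CD4+ libraries on the left and CD8+ libraries on the right of each panel. Circles are replicate 1, squares replicate 2, and bars the mean of 2 libraries. Ccl5 and Heatr9 show the same order of groups with close replicates, whereas the replicates of Cxcl10, Xcl1, and Ccl4 are spread and replicate 1 is the higher in every group.

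Heatr9 had the same order of groups as Ccl5 at a far lower level. In CD4+ T cells it was at 1.32 and 1.48 CPM in WT, 7.63 and 9.74 CPM in STAT3-/-, and 4.03 and 3.14 CPM in STAT3-/-PD-1-/- libraries. The CD8+ libraries had 13.2 and 15.1 CPM in WT, 22.8 and 30.9 CPM in STAT3-/-, and 5.39 and 6.45 CPM in STAT3-/-PD-1-/- libraries. No neighbors in the order of the 6 groups overlapped. Its log2 fold change for STAT3-/- against WT was 2.63 ± 0.29 (CD4+) and 0.92 ± 0.21 (CD8+). For STAT3-/-PD-1-/- against STAT3-/- it was -1.26 ± 0.27 and -2.17 ± 0.22. The STAT3-/-PD-1-/- value against WT was 1.37 ± 0.29 (CD4+) and -1.25 ± 0.22 (CD8+), again opposite in sign. Without single libraries the values for STAT3-/- against WT ran from 2.43 to 2.81 (CD4+) and from 0.68 to 1.13 (CD8+).

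Between 2.76 and 6.55 Heatr9 counts (median 4.67) were recorded per 100 Ccl5 counts over the 12 libraries, while the Ccl5 counts themselves ran from 1051 to 14085. Per length of exon, the Heatr9 level was 0.789% to 1.87% of the Ccl5 level. The ratio was 2.76 and 2.77 per 100 in WT CD4+ libraries and 4.46 to 5.90 per 100 in the other 4 CD4+ libraries. With CD8+ cells it was 3.34 and 4.24 per 100 in WT and 4.39 to 6.55 per 100 in the STAT3-deficient libraries. In both subsets the WT libraries thus had the lowest Heatr9 share. The table holds 1 count per gene, and whether reads that run on from Ccl5 enter the Heatr9 count was not tested.

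**Figure D2:**
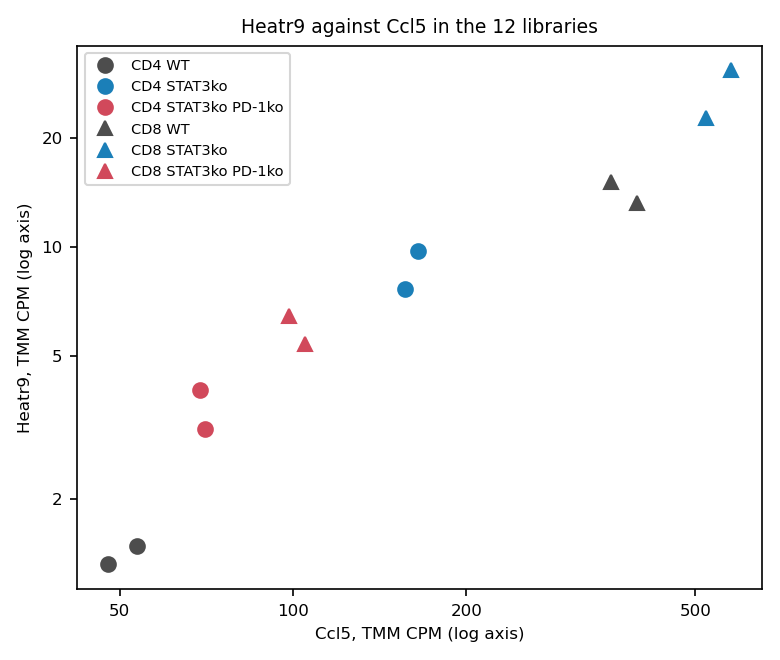
Heatr9 level against Ccl5 level (both TMM-normalized CPM, log axes) in the 12 libraries. Circles are CD4+ and triangles CD8+ libraries, colored by donor genotype. The points follow 1 line from WT CD4+ (Ccl5 at 47.8 and 53.5 CPM) to STAT3-/- CD8+ libraries (521 and 576 CPM).

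Over genes kept by the filter in both subsets, likeness to Ccl5 was measured by the smaller of the Pearson correlations of log2 CPM over the 6 CD4+ and over the 6 CD8+ libraries. Heatr9 was second of 11690 genes, with r = 0.96 in CD4+ and 0.96 in CD8+ T cells. First was A930006K02Rik (0.97 and 0.97). Rtp4, an interferon-induced chaperone of receptor transport, was next (0.96 and 0.97), before Art2b, an ADP-ribosyltransferase of the T cell surface (0.94 and 0.93), and Trim30d, a TRIM family gene (0.97 and 0.93). For Heatr9 the most like gene was Ccl5, followed by Chrne, an acetylcholine receptor subunit (0.94 and 0.93), and Klrk1, which encodes NKG2D (0.92 and 0.95). The other 4 members ranked from 2786 to 7224 in likeness to Ccl5. Each value rests on 6 libraries that share their donors' genotypes, and the genes were ranked on the same libraries.

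Ccl3 and Ccl4 did not share this pattern. Ccl3 was at 99.9 and 95.6 CPM in WT, 70.4 and 60.7 CPM in STAT3-/-, and 225 and 67.1 CPM in STAT3-/-PD-1-/- CD4+ libraries. With CD8+ cells it was at 86.5 and 133 CPM in WT, 81.9 and 99.5 CPM in STAT3-/-, and 136 and 48.7 CPM in STAT3-/-PD-1-/-. The STAT3-/-PD-1-/- libraries were the most apart of the 3 genotypes and overlapped WT in both subsets. The log2 fold changes of Ccl3 ran from -0.57 ± 0.46 (STAT3-/- against WT, CD4+) to 1.17 ± 0.46 (STAT3-/-PD-1-/- against STAT3-/-, CD4+), and in CD8+ T cells all 3 were within 1 standard error of 0. The highest of these values rested on 1 library, being 0.061 without replicate 1 of STAT3-/-PD-1-/- and 1.79 without its replicate 2.

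Ccl4 was at 68.38 and 50.05 CPM in WT, 45.6 and 33.7 CPM in STAT3-/-, and 86.2 and 21.8 CPM in STAT3-/-PD-1-/- CD4+ libraries. The CD8+ libraries had 85.0 and 73.1 CPM in WT, 71.1 and 53.7 CPM in STAT3-/-, and 47.7 and 13.2 CPM in STAT3-/-PD-1-/-. In CD8+ T cells both STAT3-/-PD-1-/- libraries were thus below all 4 others, with a log2 fold change of -1.37 ± 0.49 against WT and -1.03 ± 0.49 against STAT3-/-. Without replicate 1 of STAT3-/-PD-1-/- these were -2.58 and -2.24, and without its replicate 2 they were -0.73 and -0.39. In CD4+ T cells the STAT3-/-PD-1-/- libraries were the highest and the lowest of the 6. Ccl4 ranked 16 of 11690 in likeness to Ccl3, with r = 0.82 in CD4+ and 0.70 in CD8+ libraries. The 3 genes most like Ccl3 were Snord47, 1700120C14Rik, and Pik3r6, a regulatory subunit of PI3Kγ, and for Ccl4 they were Ggta1, Ubash3b, a phosphatase that restrains T cell receptor signaling, and Agpat4.

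Xcl1 had a higher mean in CD8+ than in CD4+ libraries of each genotype, with spread replicates. It was at 11.5 and 5.17 CPM in WT, 20.8 and 4.45 CPM in STAT3-/-, and 8.74 and 4.29 CPM in STAT3-/-PD-1-/- CD4+ libraries. The CD8+ values were 36.3 and 23.5 CPM in WT, 31.7 and 11.7 CPM in STAT3-/-, and 43.2 and 22.4 CPM in STAT3-/-PD-1-/-. Within a subset the genotypes overlapped in all 3 comparisons, and the log2 fold changes ran from -0.93 ± 0.70 to 0.61 ± 0.48. In 5 of these 6 values the sign changed when a single library was left out, for example from -0.89 to 1.31 (STAT3-/- against WT, CD4+). Its most like genes were Slc35a3, Vma21, and Rps12.

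Cxcl10 was the least abundant of the chemokine members and the most spread. It was at 9.37 and 2.71 CPM in WT, 21.3 and 2.31 CPM in STAT3-/-, and 4.67 and 2.22 CPM in STAT3-/-PD-1-/- CD4+ libraries. The CD8+ values were 5.78 and 0.799 CPM in WT, 16.6 and 0.736 CPM in STAT3-/-, and 1.59 and 1.10 CPM in STAT3-/-PD-1-/-. The genotypes overlapped in all 6 comparisons, and the standard errors of its log2 fold changes were 0.93 to 1.34. All 6 changed sign when a single library was left out, as from -2.13 to 3.42 for STAT3-/- against WT CD8+ T cells. Replicate 1 was the higher library in every group, by 1.44-fold to 22.6-fold. P2ry10, Dnajb4, and Spty2d1 were the genes most like it.

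**Figure D3:**
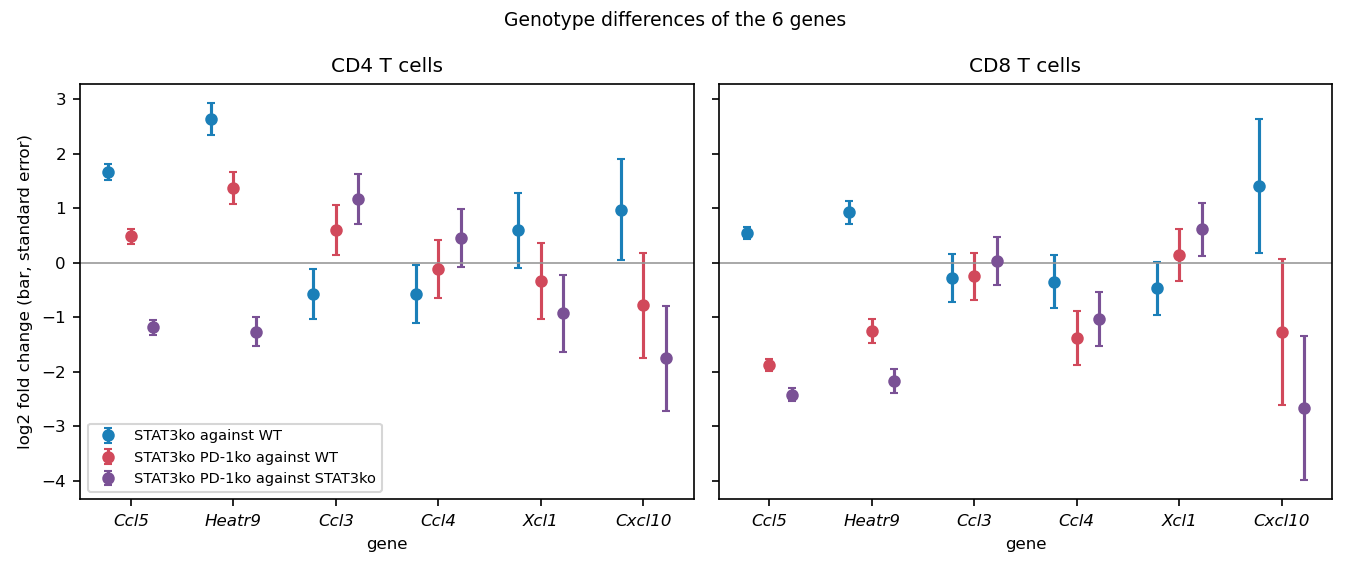
Log2 fold changes of the 6 genes in the 3 genotype comparisons of each subset, from the fit of the 6 libraries of that subset; bars are standard errors. Ccl5 and Heatr9 carry short bars, and their values for STAT3-/-PD-1-/- against WT lie above 0 in CD4+ (0.48 and 1.37) and below 0 in CD8+ T cells (-1.88 and -1.25).

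Overlap between STAT3-/- and WT libraries was missing for 4 members (CD4+) and 3 members (CD8+), against 38.2% and 43.6% of all genes tested. Between STAT3-/-PD-1-/- and WT it was missing for 2 and 3 members (59.2% and 59.7% of all genes). The numbers for STAT3-/-PD-1-/- and STAT3-/- libraries were 2 and 3 (59.2% and 63.1% of all genes). Since the genes were selected on these comparisons, nothing is read from these counts. All 6 genes passed the filter on low counts in both subsets, and their lowest counts in a library were 1051 (Ccl5), 29 (Heatr9), 1193 (Ccl3), 324 (Ccl4), 100 (Xcl1), and 18 (Cxcl10).

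CD8+ and CD4+ T cells of the same genotype were then compared, with a test by edgeR's quasi-likelihood method over all 12334 genes kept in the 12 libraries. The members had been selected with earlier results of these data known, from values in these same libraries. Their adjusted p values are therefore given as a description, and no call of a member is read as a test. In WT T cells, Ccl5 was 7.43-fold higher in CD8+ than in CD4+ libraries (log2 difference 2.89 ± 0.12, adjusted p = 1.27e-06). Heatr9 was 10.1-fold higher (3.33 ± 0.25, adjusted p = 3.71e-05). In STAT3-/- T cells the ratios were 3.41-fold for Ccl5 (1.77 ± 0.12, adjusted p = 2.11e-05) and 3.09-fold for Heatr9 (1.63 ± 0.22, adjusted p = 0.00150). In STAT3-/-PD-1-/- T cells Ccl5 was 1.46-fold higher (0.55 ± 0.12, adjusted p = 0.0278), and this call was lost when any 1 of the 4 libraries was left out, with adjusted p between 0.114 and 0.191. Heatr9 there had a log2 difference of 0.73 ± 0.23 (adjusted p = 0.133).

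Among the 6 genes, 2 passed the threshold of 0.05 with WT, 2 with STAT3-/-, and 1 with STAT3-/-PD-1-/- donors, while 10.5%, 9.62%, and 4.14% of all genes did so. In each genotype, 4 members had no overlap between the subsets, as had 48.1%, 47.5%, and 46.5% of all genes. Xcl1 was at 3.58-fold, 1.72-fold, and 5.05-fold of its CD4+ level in CD8+ T cells of WT, STAT3-/-, and STAT3-/-PD-1-/- donors. These differences did not pass the threshold (adjusted p = 0.162, 0.603, and 0.131), and their standard errors on the log2 scale were 0.71 to 0.74. With CD4+ and CD8+ libraries paired by replicate number (the number within each genotype as a block in edgeR's fit), Xcl1 passed in all 3 and was higher in CD8+ T cells (adjusted p = 0.000276, 0.00956, and 0.000234). For Ccl3, Ccl4, and Cxcl10 the adjusted p values were 0.623 to 0.912, with log2 differences from -1.35 ± 1.43 to 0.65 ± 0.61. When paired, Ccl4 passed in all 3 genotypes (adjusted p = 0.0104, 0.00167, and 0.00142), higher in CD8+ T cells of WT and STAT3-/- and lower in those of STAT3-/-PD-1-/- donors. Cxcl10 then passed in WT and STAT3-/-PD-1-/- (0.0480 and 0.0455), lower in CD8+ T cells, and Heatr9 in STAT3-/-PD-1-/- (0.0257), where it was higher in CD8+ T cells. The paired fit thus called 5, 4, and 5 of the 6 genes, and 24.3%, 24.9%, and 14.4% of all genes. Nothing is read from the calls of the members in either fit. The members had been selected with these libraries seen, and the pairing was chosen after seeing the data.

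Levels were compared between chemokine genes per kilobase of exon. Over the 39 ligand genes listed, Ccl5 made up a mean of 23.98% of the summed ligand level in WT CD4+ libraries, 57.7% in STAT3-/-, and 29.1% in STAT3-/-PD-1-/-. With CD8+ cells its share was 67.9%, 79.3%, and 45.2%. Ccl3 was the most abundant ligand in both WT CD4+ libraries, with a mean of 31.1% of the ligand level. The STAT3-/-PD-1-/- CD4+ libraries differed, with Ccl3 at 41.8% and Ccl5 at 19.1% in replicate 1, and Ccl3 at 25.2% and Ccl5 at 39.2% in replicate 2. Ccl5 was the most abundant in both libraries of the other 4 groups. Ccl4 took 22.5%, 11.4%, and 14.5% in CD4+ and 11.5%, 7.29%, and 9.44% in CD8+ libraries of WT, STAT3-/-, and STAT3-/-PD-1-/-. Xcl1 took 14.9% and 12.9% in STAT3-/-PD-1-/- CD8+ libraries and 1.70% to 7.23% in the other 10 libraries. Cxcl10 took at most 3.50% in a library (STAT3-/- CD4+, replicate 1).

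Of 34 further ligand genes in the table, 9 passed the filter with CD4+ and 8 with CD8+ T cells, and 2 of them, Ccl1 and Cx3cl1, stood apart between genotypes. Ccl1, a ligand of CCR8, was at 24.9 and 38.1 CPM in WT, 18.98 and 21.34 CPM in STAT3-/-, and 55.5 and 36.4 CPM in STAT3-/-PD-1-/- CD4+ libraries. The CD8+ libraries had 2.76 and 6.63, 1.60 and 2.13, and 14.3 and 10.4 CPM in the same order. It rose in STAT3-/-PD-1-/- against STAT3-/- T cells, with a log2 fold change of 1.204 ± 0.27 for CD4+ (adjusted p = 0.0349) and 2.74 ± 0.44 for CD8+ T cells (adjusted p = 0.0112). For STAT3-/-PD-1-/- against WT it passed in neither subset, and the CD4+ libraries overlapped. In contrast to Ccl5, Ccl1 was lower in CD8+ than in CD4+ T cells of every genotype, by 6.68-fold in WT (adjusted p = 0.00175), 10.8-fold in STAT3-/- (adjusted p = 0.000884), and 3.72-fold in STAT3-/-PD-1-/- (adjusted p = 0.0180).

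Cx3cl1, the membrane-bound ligand of CX3CR1, had 50 and 74 counts in STAT3-/-PD-1-/- CD4+ libraries and 30 and 49 counts in STAT3-/-PD-1-/- CD8+ libraries. In the other 8 libraries it had between 0 and 3 counts. It passed the filter on low counts only through the STAT3-/-PD-1-/- libraries, so its difference is given as a description, with no test. With 1 count in all in WT CD4+ libraries, the ratio was 117, with a 95% interval from 20.6 to 4663 that covers counting error only. With no count in WT or STAT3-/- CD8+ libraries, it was at least 13.1-fold and 13.2-fold higher in STAT3-/-PD-1-/-, against a floor of 3 counts in each library.

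The receptors of the member ligands came next. Ccr1 was at 7.82 and 6.10 CPM in WT CD4+ libraries and at 1.07 to 1.99 CPM in the other CD4+ libraries. It fell by 2.09 in STAT3-/-PD-1-/- against WT CD4+ T cells (adjusted p = 0.0146), and the value of -2.21 ± 0.38 in STAT3-/- did not pass (adjusted p = 0.0823). Ccr3 was at 0.816 to 2.59 CPM and passed in no comparison (adjusted p from 0.288 to 0.985). Xcr1 was at 0 to 3 counts in every library, at or under the floor of 3 counts, so no difference was detectable at this depth. Cxcr3, the receptor of CXCL10, was at 223 and 225 CPM in WT, 240 and 259 CPM in STAT3-/-, and 128 and 107 CPM in STAT3-/-PD-1-/- CD8+ libraries. It fell by 0.92 on the log2 scale against WT (adjusted p = 0.00679) and by 1.07 against STAT3-/- (adjusted p = 0.00477), while in CD4+ T cells the values were -0.23 ± 0.20 and -0.55 ± 0.20 (adjusted p = 0.492 and 0.121).

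Among all 24 receptor genes listed, 16 passed the filter in CD4+ and 17 in CD8+ T cells. Comparing STAT3-/-PD-1-/- with WT, 5 of 16 fell with CD4+ T cells, and 2 of 17 rose and 5 fell with CD8+ T cells, as compared with 12.9% and 17.2% of all genes that changed. Their median log2 fold changes were -0.54 and -0.25, as compared with -0.011 and -0.00062 for all genes. Against STAT3-/-, 4 of 16 fell with CD4+ T cells, and 3 of 17 rose and 6 fell with CD8+ T cells, as compared with 11.1% and 16.8% of all genes. Ccr2, the receptor of CCL2, had the lowest values of the receptors called, with log2 fold changes of -3.72 ± 0.37 and -3.798 ± 0.44 against WT (CD4+ and CD8+, adjusted p = 0.00321 and 0.00483) and of -3.003 ± 0.36 and -2.79 ± 0.42 against STAT3-/- (adjusted p = 0.00728 and 0.00960). Cxcr6, a receptor of T cells resident in the liver, also fell in these 4 comparisons, with log2 fold changes from -1.74 to -1.29. Cxcr5, the receptor that guides T cells to B cell follicles, fell by 3.16 in STAT3-/-PD-1-/- against WT CD4+ T cells (adjusted p = 0.00250). Cx3cr1 had log2 fold changes of -1.27 ± 0.34 and -2.11 ± 0.35 in STAT3-/-PD-1-/- CD8+ T cells against WT and STAT3-/- (adjusted p = 0.0443 and 0.0119).

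Receptors that passed the test and rose were found with CD8+ T cells. Ccr8, the receptor of CCL1, rose by 1.94 against WT (adjusted p = 0.0128) and by 1.74 against STAT3-/- (adjusted p = 0.0181), and ligand and receptor were both higher in STAT3-/-PD-1-/- than in STAT3-/- CD8+ T cells. Ccr4, which binds CCL17 and CCL22, rose by 1.58 and 1.76 (adjusted p = 0.0175 and 0.0146), and Ccr6, the receptor of CCL20, rose by 3.26 against STAT3-/- (adjusted p = 0.0136) from 8 and 2 counts to 40 and 57 counts. With CD4+ T cells the values of Ccr8 and Ccr4 were 0.23 to 0.64 and did not pass (adjusted p from 0.219 to 0.589). The difference of the genotype effect between subsets was tested by edgeR for each listed gene and, without pairing, passed for none of the 77 in any of the 3 genotype comparisons. At an unadjusted p under 0.05 there were 1, 8, and 7, and of all 12334 genes 0%, 0.00811%, and 0% passed. The 1 gene behind the second value is Ccl5. Its selection had used these comparisons, so nothing is read from it. With the CD4+ and CD8+ libraries paired by replicate number, the difference passed for 0 (STAT3-/- against WT), 4 (STAT3-/-PD-1-/- against WT), and 1 (STAT3-/-PD-1-/- against STAT3-/-) of the 77, against 0%, 0.681%, and 0.178% of all genes. Against WT, the log2 fold change in CD8+ minus that in CD4+ T cells was 1.34 ± 0.20 for Ccr8 (adjusted p = 0.0269), -1.89 ± 0.22 for Eomes (adjusted p = 0.0127), -0.91 ± 0.15 for Irf8 (adjusted p = 0.0391), and 0.73 ± 0.12 for Jun, an AP-1 subunit (adjusted p = 0.0386). Against STAT3-/- it was -1.69 ± 0.22 for Eomes (adjusted p = 0.0416).

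**Figure D4:**
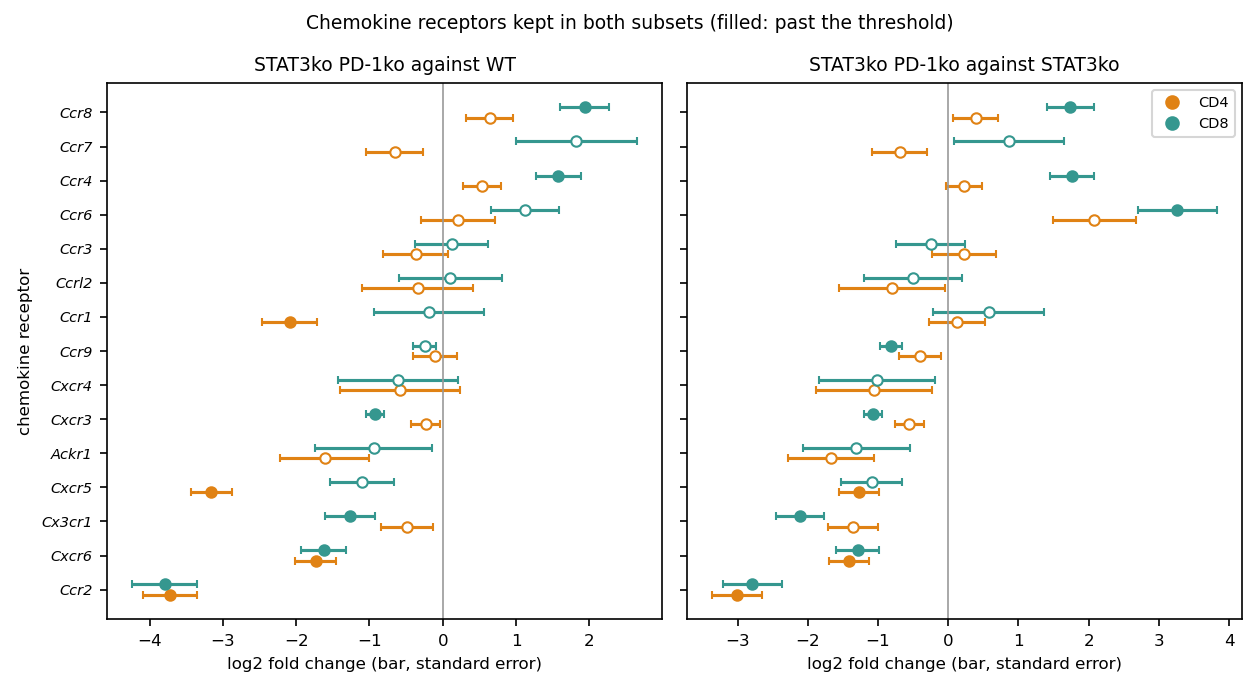
Log2 fold change of 15 chemokine receptor genes kept by the filter in both subsets, in STAT3-/-PD-1-/- against WT and against STAT3-/-, with standard errors. Filled points passed an adjusted p under 0.05. Ccr2 and Cxcr6 are filled and below 0 in all 4 comparisons, and Ccr8 and Ccr4 are filled and above 0 in CD8+ T cells.

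For STAT3-/- against WT, 1 of 76 listed genes changed with CD4+ T cells, while 0.334% of all genes did. This was Cxcr5, which fell by 1.90 on the log2 scale (9.23 and 12.3 CPM in WT, 2.92 and 2.85 CPM in STAT3-/-, adjusted p = 0.0413). It was lost when any 1 of the 4 libraries was left out. A fit with the replicate number as a block called 2 of 76 listed genes, Cxcr5 among them, and 2.53% of all genes. With CD8+ T cells edgeR called 0 of 75 and 0.0583% of all genes, DESeq2 called 1, and 10 had an unadjusted p under 0.05. With Cx3cl1 left out, the listed genes that changed for STAT3-/-PD-1-/- against WT were 11 of 75 (CD4+) and 18 of 74 (CD8+). Against STAT3-/- they were 11 and 20. As shares these are 14.7% and 24.3% against WT and 14.7% and 27% against STAT3-/-, beside 12.9%, 17.2%, 11.1%, and 16.8% of all genes. Counted with Cx3cl1 they were 12 and 19 against WT and 12 and 21 against STAT3-/-, and the counts that follow are set against these. With the replicate number as a block, the CD4+ counts were 25 and 29 (26% of all genes in each). The counts depended on single libraries, and each fell when any 1 of the libraries compared was left out. In these fits fewer of all genes passed as well, and 1 group holds 1 library. Nothing is therefore read from them about the listed genes.

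Of 25 genes of signaling below chemokine receptors that were tested in CD4+ T cells, 4 fell against WT and 3 against STAT3-/-, and of 24 in CD8+ T cells 6 and 5 fell. None of those tested rose. These were 16% and 12% (CD4+) and 25% and 20.8% (CD8+) of the list, against 12.9%, 11.1%, 17.2%, and 16.8% of all genes changed in either direction, and the list is not set apart by these shares. Plcb2, a phospholipase C activated by G protein βγ subunits, was at 26.0 and 32.8 CPM in WT and 8.74 and 6.95 CPM in STAT3-/-PD-1-/- CD4+ libraries, and at 40.4 and 42.8 CPM as compared with 12.6 and 8.90 CPM in CD8+ libraries. Its log2 fold changes were -1.95 to -1.82 in the 4 comparisons with STAT3-/-PD-1-/- (adjusted p from 0.00440 to 0.00832). Gng2, a G protein γ subunit, had -1.02 to -0.59 in the same comparisons (adjusted p from 0.00493 to 0.0402). Dock2, the exchange factor for Rac in migrating lymphocytes, had -0.64 and -0.71 in CD8+ T cells (adjusted p = 0.00754 and 0.00644), and Pik3r5, a PI3Kγ regulatory subunit, fell by 1.12 against STAT3-/- CD8+ T cells (adjusted p = 0.0159).

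Of 26 genes for transcription factors with a known role at chemokine genes, 2 rose in STAT3-/-PD-1-/- against WT CD4+ T cells, and 2 rose and 1 fell against STAT3-/-. Eomes, a T-box factor of effector and memory T cells, was at 3.46 and 2.88 CPM in WT, 4.33 and 3.25 CPM in STAT3-/-, and 7.79 and 8.66 CPM in STAT3-/-PD-1-/- CD4+ libraries. It rose by 1.40 against WT (adjusted p = 0.0158) and by 1.14 against STAT3-/- (adjusted p = 0.0340). Irf8 rose by 1.10 and 0.87 (adjusted p = 0.0117 and 0.0299). Irf7, an interferon regulatory factor, had log2 fold changes of -0.91 for STAT3-/-PD-1-/- against STAT3-/- CD4+ T cells (adjusted p = 0.0259) and -1.18 for the CD8+ pair (adjusted p = 0.0143), and fell in both. With CD8+ T cells 5 factors fell against WT and 5 against STAT3-/-. The shares called were 7.69% and 11.5% (CD4+) and 19.2% and 19.2% (CD8+), near the 12.9%, 11.1%, 17.2%, and 16.8% of all genes. Nfatc1, Nfatc2, Runx1, and Irf7 fell in both, and Klf13, first described as a factor of the CCL5 gene, fell against WT by 0.58 (adjusted p = 0.0229). Between subsets, Eomes was 9.46-fold, 8.19-fold, and 2.57-fold higher in CD8+ than in CD4+ T cells of WT, STAT3-/-, and STAT3-/-PD-1-/- donors (adjusted p = 1.41e-05, 2.11e-05, and 0.00304). Tbx21, which encodes T-bet, passed in none of the 9 comparisons, with log2 differences from -0.69 ± 0.40 to 0.50 ± 0.41.

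Between CD8+ and CD4+ T cells, 13 of 77 listed genes changed with WT, 9 with STAT3-/-, and 5 with STAT3-/-PD-1-/- donors. These are 16.9%, 11.7%, and 6.49% of the listed genes, against 10.5%, 9.62%, and 4.14% of all genes. With the libraries paired by replicate number the calls were 30, 28, and 22 listed genes (39%, 36.4%, and 28.6%), against 24.3%, 24.9%, and 14.4% of all genes, and they held all 13, 9, and 5 genes called without pairing. In the unpaired fit, the receptors among the genes called were mostly lower in CD8+ T cells, 5 of 7 in WT, 4 of 5 in STAT3-/-, and 2 of 3 in STAT3-/-PD-1-/-. Ccr4 had log2 differences of -3.18, -3.67, and -2.13, and Ccr9, a gut homing receptor, of -1.82, -1.54, and -1.95. Cx3cr1 was higher in CD8+ T cells of WT (1.52 ± 0.40, adjusted p = 0.0387) and STAT3-/- donors (1.504 ± 0.40, adjusted p = 0.0408). Ccr10 was higher in WT CD8+ T cells (adjusted p = 0.0310), with 14 counts as compared with 2, a ratio of 6.72 with a 95% interval from 1.54 to 60.9 for counting error only. Without single libraries the unpaired counts fell in each genotype, and fewer of all genes passed as well. These fits leave 1 group with 1 library, so nothing is read from them about the listed genes.

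The genes around Ccl5 were examined for the range over which the pattern extended. Of 27 further genes within 500000 bases on either side, 17 passed the filter in CD4+ and 18 in CD8+ T cells. For STAT3-/- against WT edgeR called none of them in either subset, nor did DESeq2, although 4 and 5 were below 0.05 before adjustment. When STAT3-/-PD-1-/- was set against STAT3-/-, 2 of 17 fell (CD4+), and 2 of 18 fell and 1 rose (CD8+). These are 11.8% and 16.7% of the genes tested, close to the 11.1% and 16.8% of all genes. Fewer of them passed when any 1 of the libraries compared was left out, and fewer of all genes passed as well. These fits leave 1 group with 1 library, so nothing is read from them about the genes around Ccl5. Slfn1, a Schlafen gene linked to T cell quiescence, had log2 fold changes of -1.66 ± 0.24 (CD4+, adjusted p = 0.0117) and -2.25 ± 0.29 (CD8+, adjusted p = 0.00665), and Slfn2 fell by 1.305 with CD8+ T cells (adjusted p = 0.0139). Synrg fell by 0.65 in CD4+ T cells (adjusted p = 0.0358), and AA465934 rose by 0.72 in CD8+ T cells (adjusted p = 0.0407). Against WT, Slfn1 fell in both subsets, Slfn2 fell in CD8+ T cells, and Slfn3 rose by 0.76 there (adjusted p = 0.0297). The CD4+ count of 1 against WT was 4 with DESeq2 and 6 with the replicate block, where 18.1% and 26% of all genes passed. Without single libraries this count and the CD8+ count of 3 were the same or lower, and fewer of all genes passed as well.

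The nearest genes that passed the filter were Taf15 on the Heatr9 side, with its midpoint at -40.6 kb from the Ccl5 start, and Ccl9 and Ccl6 on the Ccl3 side at 45.3 and 60.0 kb. Taf15 had log2 fold changes of 0.45 ± 0.15 and 0.33 ± 0.12 for STAT3-/- against WT (CD4+ and CD8+, adjusted p = 0.332 and 0.391) and of 0.018 ± 0.15 and -0.079 ± 0.12 for STAT3-/-PD-1-/- against STAT3-/- (adjusted p = 0.951 and 0.685). Ccl6 and Ccl9, which are made mainly by myeloid cells, were at 0.141 to 6.23 CPM and passed in no comparison (adjusted p from 0.136 to 0.972). Gas2l2 and Rasl10b, located further on the Heatr9 side, had at most 8 counts in a library and did not pass the filter.

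**Figure D5:**
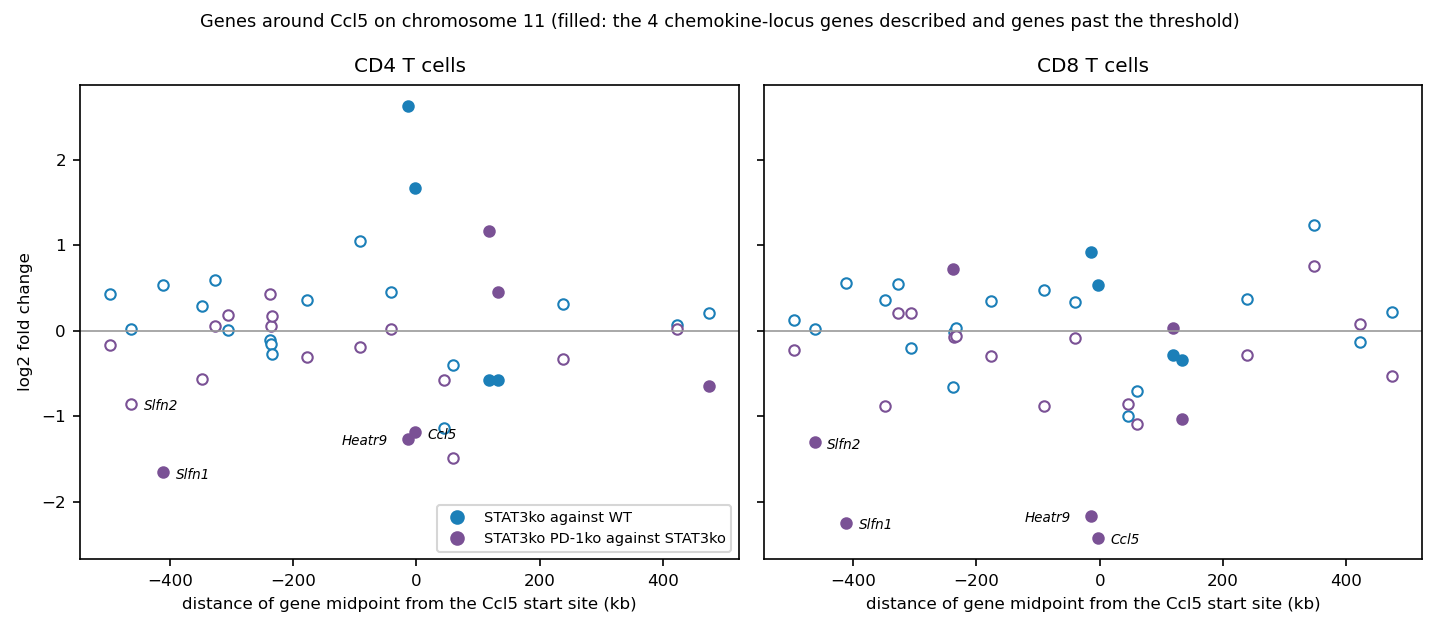
Log2 fold change of genes within 500000 bases of Ccl5 against the distance of their midpoint from its start site (kb), in STAT3-/- against WT and in STAT3-/-PD-1-/- against STAT3-/-. Filled points are Ccl5, Heatr9, Ccl3, and Ccl4, which were not tested, and other genes with an adjusted p under 0.05. Heatr9 and Ccl5 lie together, at -1.26 and -1.19 in CD4+ and -2.17 and -2.42 in CD8+ T cells, and Slfn1 and Slfn2 lie at -410.8 and -462.6 kb.

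Markers of other cells were measured beside these values. Of 5 NK cell genes listed, Klra8 and Klra4 had no count in any library and Ncr1 was at most 0.424 CPM. The remaining genes were Klrb1c, at 10.2 to 56.2 CPM, and Gzma, which cytotoxic T cells also express and which was the most abundant. The summed NK level was 375 and 242 CPM in WT, 179 and 137 in STAT3-/-, and 113 and 104 in STAT3-/-PD-1-/- CD4+ libraries, and 2254 and 2069, 926 and 1157, and 616 and 466 CPM in CD8+ libraries. The sum was thus highest in WT and lowest in STAT3-/-PD-1-/- libraries of each subset, and higher in CD8+ than in CD4+ libraries of each genotype. This order is that of Gzma. Klrb1c did not share it in CD4+ libraries, where both STAT3-/- libraries were above both WT libraries. The dendritic cell sum ran from 5.84 CPM (STAT3-/-PD-1-/- CD4+) to 392 CPM (WT CD8+) with Itgax the most abundant gene in each library, which activated T cells also express. Siglech was at 0 in 12 and Clec9a in 11 of the 12 libraries. The hepatocyte sum was 1.55 to 5.31 CPM with Trf the most abundant, the Kupffer cell or macrophage sum 7.02 to 37.7 CPM with Cd68, the monocyte or neutrophil sum 0.173 to 2.40 CPM, the B cell sum 1.63 to 14.7 CPM with Cd79b and no count of Ms4a1, the platelet sum 0.518 to 2.13 CPM, and the endothelial sum 110 to 198 CPM, nearly all Pecam1. The part of these cells in the level of any chemokine gene was not tested.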

How the data were processed

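Donor T cells were profiled by single-end mRNA sequencing in 12 libraries. Per the methods, the authors used STAR for alignment to mm10 and HTSeq-count with RefSeq annotation to obtain counts per gene. The deposited counts are not normalized. The deposited RPKM values, which the authors computed per kilobase of exon length, served only as an alternative. Whether counting used strand is not given in the sources used here, and the labels and the methods name different library kits. No column belonged to other samples (0 columns left out).

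Counts were tested with edgeR 4.0.16 (quasi-likelihood, TMM, filterByExpr with a minimum count of 10 and a minimum total of 15; R 4.3.3), with Benjamini-Hochberg adjustment and a threshold of 0.05. Genotypes were compared within the 6 libraries of a subset (11959 genes for CD4+ and 12002 for CD8+), and the subsets within all 12 (12334 genes). Each group has 2 libraries. The subsets of a genotype came from the same livers per the study's legends, and deviations of same-numbered CD4+ and CD8+ libraries correlated at 0.62 (WT), 0.61 (STAT3-/-), and 0.71 (STAT3-/-PD-1-/-) over 11691 genes, so they were taken as pairs. The unpaired fit came first, and the paired values stand beside it where a call changed. The code was tested on simulated data. The members and the gene lists were chosen with earlier results of these data known. Adjusted p values and calls of the members between subsets are therefore descriptions under every setting. Named genes are the members, their receptors, up to 4 called genes with the largest fold change per list and comparison, and the genes most like each member. Tbx21, Nfatc1, Taf15, Gas2l2, and Rasl10b were named after their values were seen. Alternatives were DESeq2 1.42.0, other count filters, only the 4 libraries compared, the replicate number as a block, log2(RPKM + 1), and leaving out each library in turn. Counting intervals (95%, exact) cover counting error only. Some genes that the lists count are not reported here by name.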

Additional observations from a re-analysis of the deposited data

Results flagged for a closer look

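For Ccl5 and for Heatr9 the value for STAT3-/-PD-1-/- against WT had opposite signs in the 2 subsets, with both libraries of a group on the same side. The log2 fold change of Ccl5 was 0.48 for CD4+ and -1.88 for CD8+ libraries. Heatr9 had 1.37 for CD4+ and -1.25 for CD8+ libraries. The unpaired fit over all genes covered this difference between subsets and called Ccl5 but not Heatr9. Both genes were selected on these comparisons, so neither outcome is read as a test.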

How the results depend on the processing

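Among the values of the 6 genes between genotypes under all alternatives, 356 moved by less than the spread between replicates and 4 moved by more. These were Heatr9 on the log2(RPKM + 1) scale, at 1.68 and 0.76 for STAT3-/- and STAT3-/-PD-1-/- against WT CD4+ T cells, and Cxcl10 in CD8+ T cells, at 0.74 without replicate 1 of WT (STAT3-/-PD-1-/- against WT) and 0.86 without replicate 1 of STAT3-/- (STAT3-/-PD-1-/- against STAT3-/-). Replicate spread was wide for 4 of the genes, however, and the sign of 17 of the 36 genotype values changed when single libraries were left out, namely 6 of 6 for Cxcl10, 5 of 6 for Xcl1 (-0.89 to 1.31 for STAT3-/- against WT CD4+ T cells), 4 of 6 for Ccl3 (-0.51 to 1.21 for STAT3-/-PD-1-/- against WT CD4+ T cells), 2 of 6 for Ccl4, and none for Ccl5 and Heatr9. Between subsets, the sign changed for 6 pairs of gene and genotype when single libraries were left out, none of which had passed in the unpaired fit. Their ranges were -0.19 to 0.45 (Ccl3, WT), -2.91 to 0.27 (Cxcl10, WT), -0.10 to 2.26 (Xcl1, STAT3-/-), -3.99 to 1.88 with 0.48 among them (Cxcl10, STAT3-/-), -1.57 to 0.45 (Ccl3, STAT3-/-PD-1-/-), and -2.01 to 0.47 (Ccl4, STAT3-/-PD-1-/-). Of these 6 pairs of gene and genotype, Cxcl10 in WT, Xcl1 in STAT3-/-, and Ccl4 in STAT3-/-PD-1-/- had passed in the paired fit. Ccl5 in STAT3-/-PD-1-/- also lost its unpaired call between subsets with only the 4 libraries compared (adjusted p = 0.0758). Xcl1 passed between subsets without the filter on low counts in WT (adjusted p = 0.0189) and STAT3-/-PD-1-/- T cells (0.00583), and in WT with only the 4 libraries compared (0.0319).

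The counts of listed genes called are given in the order STAT3-/- against WT, STAT3-/-PD-1-/- against WT, STAT3-/-PD-1-/- against STAT3-/-. With DESeq2 they were 3, 19, and 19 in CD4+ T cells, and 1 for STAT3-/- against WT CD8+ T cells. With all genes of at least 1 count the first and the last were 2 and 19 in CD4+ T cells. With only the 4 libraries compared the first was 0 in CD4+ T cells, and the count between subsets in STAT3-/-PD-1-/- T cells was 3. Leaving out single libraries gave 0 to 0, 3 to 8, and 0 to 11 in CD4+ T cells, 0 to 0, 2 to 14, and 0 to 18 in CD8+ T cells, and between subsets 7 to 10 (WT), 5 to 8 (STAT3-/-), and 3 to 4 (STAT3-/-PD-1-/-). The causes were not tested.

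With the replicate block the counts were 2, 25, and 29 in CD4+ T cells and 30, 28, and 22 between subsets (WT, STAT3-/-, STAT3-/-PD-1-/-). Under it the difference of the genotype effect between subsets passed for 4 listed genes (STAT3-/-PD-1-/- against WT) and 1 (STAT3-/-PD-1-/- against STAT3-/-), an alternative chosen after seeing the data. It changed no call of Ccl5 between subsets, and the other members it called are given with that comparison. Between genotypes the numbers join libraries of different recipients, and deviations of same-numbered libraries correlated at 0.05 to 0.69 over the 6 pairs of groups and above 0.1 in 5 of them. The labels give no shared litter, day, or batch, so these were not taken as pairs. The study's methods name 2 batches for its T cell receptor sequencing, but none in the part on RNA sequencing. Library numbers in the titles form a separate run for each replicate number, and what differed between the runs was not tested. For STAT3-/- against WT, the block moved the share of all genes called from 0.334% to 2.53% (CD4+) and from 0.0583% to 0.075% (CD8+). Depth limits mainly Cxcl10 (18 counts in its lowest library) and Heatr9 (29 counts).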

Other observations

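The libraries numbered 1 and 2 differed in several chemokine genes across all groups. Ccl4, Xcl1, and Cxcl10 were higher in replicate 1 in 6 of 6 groups, by 1.16-fold to 3.96-fold, 1.54-fold to 4.67-fold, and 1.44-fold to 22.6-fold. The myeloid genes Ccl6 and Ccl9 were higher in replicate 2 in 6 of 6 groups, by 1.03-fold to 3.89-fold and 1.07-fold to 6.89-fold. Lyz2, another myeloid gene, was also higher in replicate 2 in 6 of 6 groups. Its lowest level, 0.0433 CPM, lay under the floor of 3 counts, so no fold is given for it. Of 11691 genes, 1169 were higher in replicate 1 in all 6 groups and 1200 (10.3%) in replicate 2. Within CD4+ libraries the levels of Xcl1 and Cxcl10 correlated at r = 0.99 (n = 6 libraries, a description), and within CD8+ libraries at 0.56.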
